A study of Mus musculus with 4 samples.

Results

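The nuclear factor I (NFI) family of transcription factors, *Nfia*, *Nfib*, *Nfic* and *Nfix*, and both STAT5 factors, *Stat5a* and *Stat5b*, were followed by RNA-Seq through the first days of adipogenesis. The 6 genes were found by matching the RefSeq identifiers of the transcripts to their symbols, which gave 15 of the 29082 transcripts, and each gene is described by its transcript with most reads over the 4 libraries. They are 6 of 22463 gene symbols and 6 of the 11541 that were expressed, defined as an RPKM (read count scaled by exon length and library size) above 1 in Ad-GFP cells on either day. The cells were brown preadipocytes, precursors of brown fat cells, of the C57BL/6J background. They came from E18.5 mouse embryos and were immortalized with SV40T, the large T antigen of a monkey virus. All 4 libraries came from Mll3-/- cells whose *Mll4* alleles were flanked by loxP sites (Mll4 f/f), so that no library represents cells with MLL3. MLL3 and MLL4 are related histone H3 lysine 4 methyltransferases. Ad-GFP cells, which the labels call wild type but list as MLL3-/-, received an adenovirus for green fluorescent protein, and Ad-Cre cells, listed as MLL3-/-;MLL4-/-, received one for the Cre recombinase, which deletes floxed *Mll4*. Cells were taken 2 days after confluence and before induction (day 0, D0) and after 2 days with dexamethasone, IBMX, indomethacin, insulin and T3 (day 2, D2). One library was sequenced per condition, so that n = 1 throughout, no difference has a replicate check and no test between conditions was possible.

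NFI proteins bind DNA as homodimers or heterodimers at a palindrome of the arm TTGGC, and all family members share a conserved DNA-binding region at the amino end while their carboxy-terminal parts differ. STAT5 proteins are kept inactive in the cytoplasm until a JAK kinase, bound to a cytokine or growth hormone receptor, phosphorylates them. They then pair, enter the nucleus and bind sites of the form TTCNNNGAA, turning on among others the genes of the SOCS family that inhibit the same route. Both families are known as regulators of fat cell differentiation, and NFIA in particular is known in brown fat. Since STAT5 is controlled by phosphorylation, the RNA level is not a measure of its activity.

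The 6 genes lie on 4 chromosomes of NCBI37/mm9. *Nfia* is at chr4:97439425-97868605 on the plus strand and *Nfib* at chr4:81936077-82351654 on the minus strand. *Nfic* is at chr10:80858931-80893750 and *Nfix* at chr8:87223775-87324243, both on the minus strand. *Stat5b* (chr11:100642045-100712038, minus strand) and *Stat5a* (chr11:100720665-100746483, plus strand) are neighbours transcribed away from each other, with 8626 bases between them. The 3′ end of *Stat5a* overlaps that of *Stat3* on the other strand by 72 bases. The transcripts used have 9513 exon bases for *Nfia* (NM_010905), 8770 for *Nfib* (NM_001113209), 6295 for *Nfic* (NM_008688), 2741 for *Nfix* (NM_001081982), 3888 for *Stat5a* (NM_011488) and 4923 for *Stat5b* (NM_001113563).

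How far reads of 50 bases can be assigned to 1 gene differs between the families. Over aligned coding bases, NFI genes were identical at between 62.8% (*Nfib* and *Nfix*) and 69.2% (*Nfia* and *Nfix*), while *Stat5a* and *Stat5b* were identical at 90.4%. The most alike stretch of 50 bases in the 4 NFI coding sequences lies in exon 2 of each annotated transcript. It is shown because it is the place where a read could most easily be assigned to the wrong NFI gene. Capitals mark the 9 positions at which any of the 4 genes differ:
Nfia: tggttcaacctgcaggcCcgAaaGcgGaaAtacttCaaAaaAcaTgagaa
Nfib: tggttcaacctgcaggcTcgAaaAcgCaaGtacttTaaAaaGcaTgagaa
Nfic: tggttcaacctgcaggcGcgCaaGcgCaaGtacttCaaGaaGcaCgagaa
Nfix: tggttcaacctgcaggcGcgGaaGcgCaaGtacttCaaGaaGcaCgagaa
These are chr4:97449833-97449882, chr4:82144564-82144613, chr10:80883434-80883483 and chr8:87296105-87296154, each read on the gene's own strand. *Nfic* and *Nfix* differ here at 1 base, and every other pair differs at 6 or 7. Windows of 50 bases were taken over the whole annotated transcripts, which differ in length from some of those counted. Of these, 32 were shared by *Nfic* and *Nfix* with at most 2 mismatches, 0.517% of those of *Nfic* and 1.31% of those of *Nfix*. *Nfia* and *Nfib* shared none with another of the 6 transcripts. With matches elsewhere in the genome included, 61 windows of *Nfix* (2.49%, 21 of them exact) and 51 of *Nfia* (0.538%) were not unique, and none of *Nfib*.

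*Stat5a* and *Stat5b* were less separable. A stretch without any difference is shown beside the most different one, in which capitals mark the differing bases:
Stat5a and Stat5b, identical: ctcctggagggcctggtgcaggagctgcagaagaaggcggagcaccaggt
Stat5a, most different: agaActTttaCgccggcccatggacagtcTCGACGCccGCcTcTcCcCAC
Stat5b, most different: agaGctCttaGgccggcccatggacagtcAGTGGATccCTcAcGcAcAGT
The identical stretch is in exon 4 of *Stat5a* (chr11:100723084-100723133) and exon 3 of *Stat5b* (chr11:100666242-100666291). The stretch with 18 differing bases is in the last exon of each, exon 20 of *Stat5a* (chr11:100745220-100745269) and exon 19 of *Stat5b* (chr11:100644415-100644464), toward the carboxy end of the protein. In all, 1237 windows matched the other gene with at most 2 mismatches, 32.2% of those of *Stat5a* and 24.7% of those of *Stat5b*, and 608 windows matched exactly. How the reads of such windows were treated is not given in the sources used here, so that part of the reads of one STAT5 gene may stand in the count of the other.

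The libraries held between 17198448 and 22986362 mapped reads behind the RPKM values, so that 3 reads per kilobase of exon give 0.131 to 0.174 RPKM. The deposited counts sum to between 96.1% and 99.4% of the mapped reads in 3 libraries and to 87.8% in Ad-Cre D2. These sums run over all transcripts, and reads on exons shared by transcripts of a gene are counted in each. The percentages are therefore not the share of mapped reads that lie on exons. *Kmt2d*, the gene of MLL4, had 18.5 RPKM at D0 and 18.7 at D2 with Ad-GFP against 16.3 and 15.6 with Ad-Cre, and a count over the whole transcript cannot show the loss of the deleted exons. *Kmt2c*, the gene of MLL3, had 1.80, 3.17, 1.41 and 1.49 RPKM in Ad-GFP D0, Ad-GFP D2, Ad-Cre D0 and Ad-Cre D2. The 6 fat cell markers summed to 30.4 RPKM in Ad-GFP D0, 1999 at D2, and 15.7 and 490.4 in Ad-Cre cells. All 7 mesenchymal markers had reads in every library, and they summed to 2012, 359.5, 1734 and 645 RPKM in the same order. The D0 libraries differed in part of them. In Ad-Cre cells 3 of the 7 were lower past 2.5-fold and none higher, beside 4.12% and 1.27% of expressed genes. *Ly6a*, a surface protein of stem and stromal cells, had 141 reads in Ad-GFP D0 and 4 in Ad-Cre D0, and the log2 ratio of Ad-Cre over Ad-GFP was −5.32 for it, −4.98 for *Cd34*, another such protein, and −2.92 for *Pdgfra*, a growth factor receptor. *Thy1* and the collagen gene *Col1a1*, with larger shares of the sum, had −0.69 and −0.30. The other 2 markers, *Pdgfrb* and the collagen gene *Col3a1*, were higher in Ad-Cre D0, with log2 ratios of 0.45 and 0.51. From D0 to D2, *Cd34* had a log2 ratio of −2.92 with Ad-GFP and 3.08 with Ad-Cre. The part of these differences in the values of the 6 genes was not tested. Of the brown fat markers, *Ucp1* had at most 1 read and *Cidea* none in any library, so these 2 defining markers of brown fat cells were at or near 0, while *Ebf2*, *Prdm16* and *Zic1* had reads in each library. *Zic1* had 300, 98, 153 and 67 reads, with a log2 ratio of D2 to D0 of −2.03 with Ad-GFP and −1.08 with Ad-Cre, while *Ebf2* had 0.73 and 1.21. None of the endothelial, blood, skeletal muscle or epithelial markers passed 1 RPKM in any library.

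*Nfix* and *Nfic* had the highest RPKM of the 6 genes in every library. *Nfib* and *Nfia* overlapped with the STAT5 genes. *Nfia* was below *Stat5b* in both D0 libraries and level with *Stat5a* in Ad-Cre D0, where both had 3.11 RPKM, and *Nfib* was below *Stat5a* in Ad-GFP D2. The NFI genes summed to 234.0 RPKM in Ad-GFP D0, 181.5 at D2, 175.1 in Ad-Cre D0 and 344.9 at D2. The STAT5 genes summed to 14.0, 32.0, 11.4 and 10.9 RPKM in the same order. The ratio of NFI to STAT5 RPKM was therefore lowest in Ad-GFP D2, at 5.68, and highest in Ad-Cre D2, at 31.7, against 16.7 and 15.3 in the D0 libraries.

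**Figure D1:**
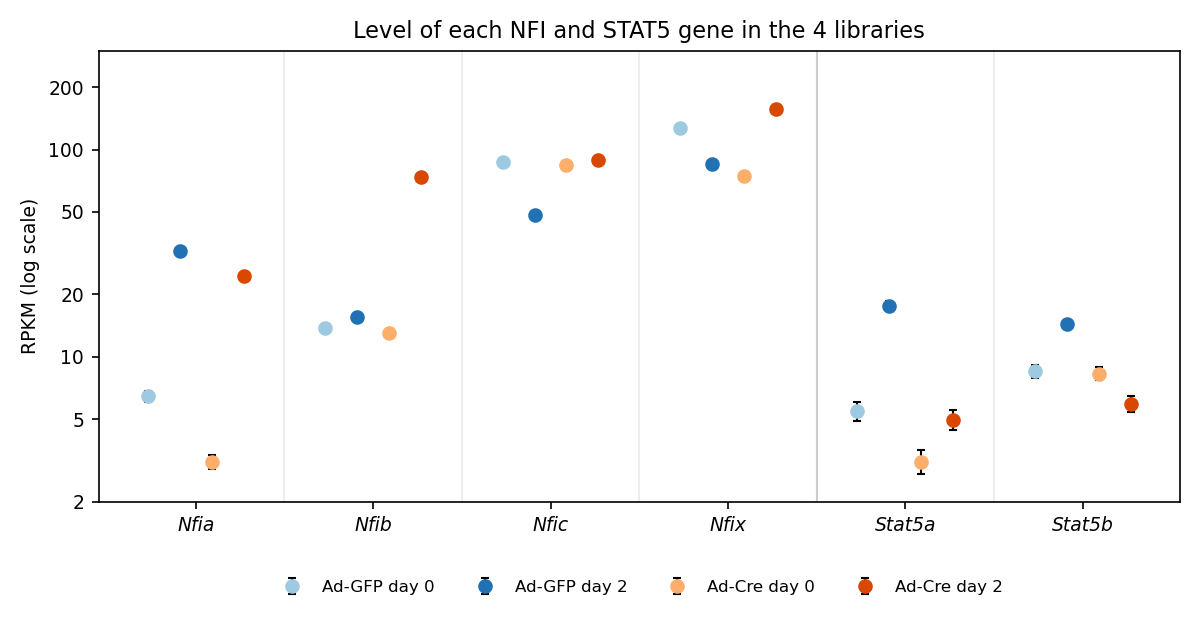
RPKM (log scale) of each gene in the 4 libraries. Points are single libraries and bars are exact Poisson 95% intervals, which cover counting error only. *Nfix* and *Nfic* lie between 48.2 and 157.0 RPKM in every library, and the STAT5 genes between 3.11 and 17.6.

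*Nfia* and *Nfib* had the largest single ratios of the NFI genes in any of the 4 comparisons, and in different libraries. *Nfia* had 1053 reads in Ad-GFP D0 and 7096 at D2, and 577 and 4226 reads in Ad-Cre cells. These are 6.44 RPKM (exact Poisson 95% interval 6.05 to 6.84), 32.5 (31.7 to 33.2), 3.11 (2.86 to 3.37) and 24.6 (23.9 to 25.4). Both D2 libraries were thus high and both D0 libraries low. The rise was 5.04-fold with Ad-GFP, a log2 ratio of 2.33 with an exact binomial 95% interval of the read ratio of 2.24 to 2.43, and 7.93-fold with Ad-Cre, a log2 ratio of 2.99 (2.86 to 3.11). In all, 311 of the 11541 expressed genes had a higher ratio with Ad-GFP and 180 with Ad-Cre. Between genotypes, *Nfia* was 2.07-fold lower in Ad-Cre D0, with a log2 ratio of −1.05 (−1.20 to −0.90). At D2 the log2 ratio was −0.40 (−0.45 to −0.34), and this sign turned to 0.56 when each ratio was divided by the trend of such ratios along transcript length and GC content. This division also moved the median log2 ratio of expressed genes at D2 from −0.16 to 0.

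*Nfib* had 2076 reads in Ad-GFP D0, 3151 at D2, 2230 in Ad-Cre D0 and 11689 at D2, or 13.8, 15.6, 13.0 and 73.9 RPKM. The first 3 lie between 13.0 and 15.6 RPKM and Ad-Cre D2 stood apart. The D2 to D0 ratio was 1.14-fold with Ad-GFP, with a log2 ratio of 0.18 (0.10 to 0.26), and 5.67-fold with Ad-Cre, with a log2 ratio of 2.504 (2.44 to 2.57). At D2 the gene was 4.73-fold higher in Ad-Cre cells, which is 2.24 (2.18 to 2.30) on the log2 scale, with 287 expressed genes above it. At D0 the log2 ratio was −0.08 (−0.17 to 0.01), an interval that includes equal levels. The trend over length and GC content acts on both genes, whose transcripts are long and have 42.7% (*Nfia*) and 42.1% (*Nfib*) GC. Divided by it, the log2 ratio of *Nfib* at D2 was 3.20 in place of 2.24, and its D2 to D0 ratio in Ad-GFP cells changed from 0.18 to −0.04.

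*Nfic* and *Nfix*, the abundant members, both fell short of 2.5-fold in all 4 comparisons and differed from each other in Ad-Cre cells. *Nfic* had 9385, 6978, 10348 and 10137 reads in Ad-GFP D0, Ad-GFP D2, Ad-Cre D0 and Ad-Cre D2, or 86.7, 48.2, 84.3 and 89.3 RPKM. Ad-GFP D2 was low and the other libraries were alike. Its log2 ratio of D2 to D0 was −0.85 (−0.89 to −0.80) with Ad-GFP and 0.08 (0.04 to 0.12) with Ad-Cre, and its log2 ratio of Ad-Cre over Ad-GFP was −0.04 (−0.08 to −0.00066) at D0 and 0.89 (0.84 to 0.93) at D2. The value at D0 changed sign, to 0.0021, with TMM factors, which scale libraries by the bulk of expressed genes.

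*Nfix* had 5992, 5370, 3993 and 7760 reads in the same order, or 127.1, 85.2, 74.7 and 157.0 RPKM. The lowest and the highest of the 4 libraries were both Ad-Cre, at D0 and D2. Its log2 ratio of D2 to D0 was −0.58 (−0.63 to −0.52) with Ad-GFP and 1.07 (1.02 to 1.13) with Ad-Cre. Ad-Cre cells were lower than Ad-GFP cells before induction, with a log2 ratio of −0.77 (−0.83 to −0.71), and higher at D2, with 0.88 (0.83 to 0.93). The longest of the 3 transcripts of *Nfix* in the files, NM_001081981 with 3562 bases, gave −0.52, 1.11, −0.78 and 0.86 for the same comparisons at lower levels, of between 52.7 and 113.7 RPKM.

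The makeup of the NFI family by RPKM differed between libraries. *Nfix* made up 54.3% of the summed RPKM in Ad-GFP D0, 46.9% at D2, 42.7% in Ad-Cre D0 and 45.5% at D2, and *Nfic* 37.0%, 26.6%, 48.1% and 25.9%. *Nfib* made up 5.88%, 8.61%, 7.44% and 21.4%. *Nfia* made up 2.75%, 17.9%, 1.78% and 7.14%. In order of RPKM, *Nfix* came first in 3 libraries and *Nfic* in Ad-Cre D0, with intervals that do not meet (72.4 to 77.0 RPKM for *Nfix* and 82.6 to 85.9 for *Nfic*). *Nfib* came before *Nfia* in every library but Ad-GFP D2, where *Nfia* had 32.5 and *Nfib* 15.6 RPKM. The summed RPKM was 1.97-fold higher at D2 than at D0 in Ad-Cre cells and 0.776 times the D0 value in Ad-GFP cells.

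**Figure D2:**
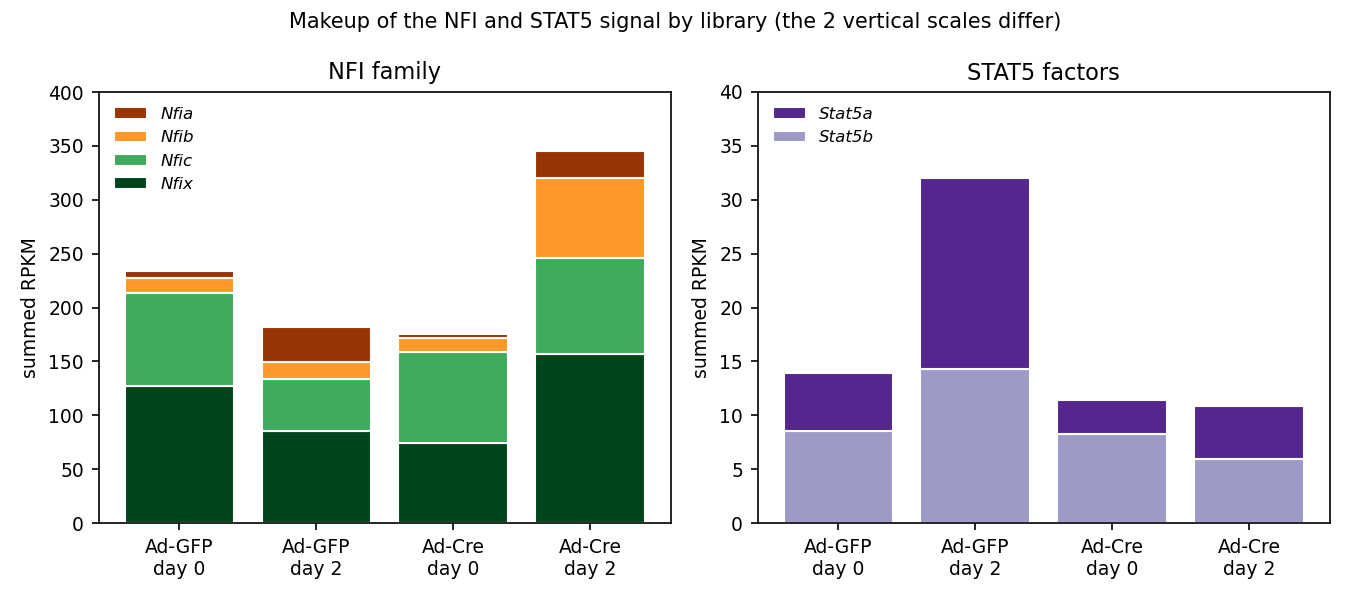
Summed RPKM of the NFI genes (left) and STAT5 genes (right) in each library, stacked by gene from 0. The vertical scales of the panels differ, and each bar is 1 library. The NFI sum is highest in Ad-Cre D2 (344.9 RPKM) and the STAT5 sum in Ad-GFP D2 (32.0 RPKM).

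Both STAT5 genes were highest in Ad-GFP D2, as were 38.1% of expressed genes. *Stat5a* had 365 reads in Ad-GFP D0, 1576 at D2, 236 in Ad-Cre D0 and 348 at D2. These are 5.46 RPKM (4.91 to 6.05), 17.6 (16.8 to 18.5), 3.11 (2.73 to 3.53) and 4.96 (4.46 to 5.51). The intervals of Ad-GFP D0 and Ad-Cre D2 meet. It rose 3.23-fold with Ad-GFP, a log2 ratio of 1.69 (1.53 to 1.86), and was 1.60-fold higher at D2 in Ad-Cre cells, with 0.67 (0.43 to 0.92). Ad-Cre cells were 1.75-fold lower at D0, with a log2 ratio of −0.81 (−1.05 to −0.57), and 3.55-fold lower at D2, with −1.83 (−2.00 to −1.66).

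*Stat5b* had 721, 1623, 797 and 526 reads in the same order, or 8.52, 14.3, 8.30 and 5.93 RPKM. The D0 libraries were alike, Ad-GFP D2 higher and Ad-Cre D2 lower. Its log2 ratio of D2 to D0 was 0.75 (0.62 to 0.88) with Ad-GFP and −0.49 (−0.65 to −0.33) with Ad-Cre. The log2 ratio of Ad-Cre over Ad-GFP was −0.04 (−0.18 to 0.11) at D0, an interval that includes equal levels, and −1.28 (−1.42 to −1.13) at D2. The D2 difference was 2.42-fold and so just short of 2.5-fold, with a counting interval on both sides of it. Divided by the trend over length and GC content, which also sets the median of expressed genes to 0, it was −0.85 in place of −1.28. The RPKM ratio of *Stat5a* to *Stat5b* was 0.641, 1.23, 0.375 and 0.838, so that *Stat5a* was the more abundant of the pair only in Ad-GFP D2. The part of reads from shared windows in this ratio was not tested.

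Past 2.5-fold were 2 of the 6 genes upward (*Nfia* and *Stat5a*) and none downward from D0 to D2 in Ad-GFP cells, where 8.38% of expressed genes were higher and 12.7% lower. In Ad-Cre cells they were again 2 upward (*Nfia* and *Nfib*) and none downward, beside 8.66% and 10%. Between genotypes at D0, none of the 6 passed in either direction, beside 1.27% higher and 4.12% lower. At D2, 1 was higher in Ad-Cre cells (*Nfib*) and 1 lower (*Stat5a*), beside 8.14% and 10.1%. The median log2 ratio of the 6 genes was 0.47, 0.87, −0.42 and 0.24 in these 4 comparisons, and that of expressed genes was 0.15, −0.01, −0.02 and −0.16. With 6 genes, these shares can only move in steps of 1 gene. The 2 comparisons within a genotype share no library, but each shares a library with both comparisons between genotypes.

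**Figure D3:**
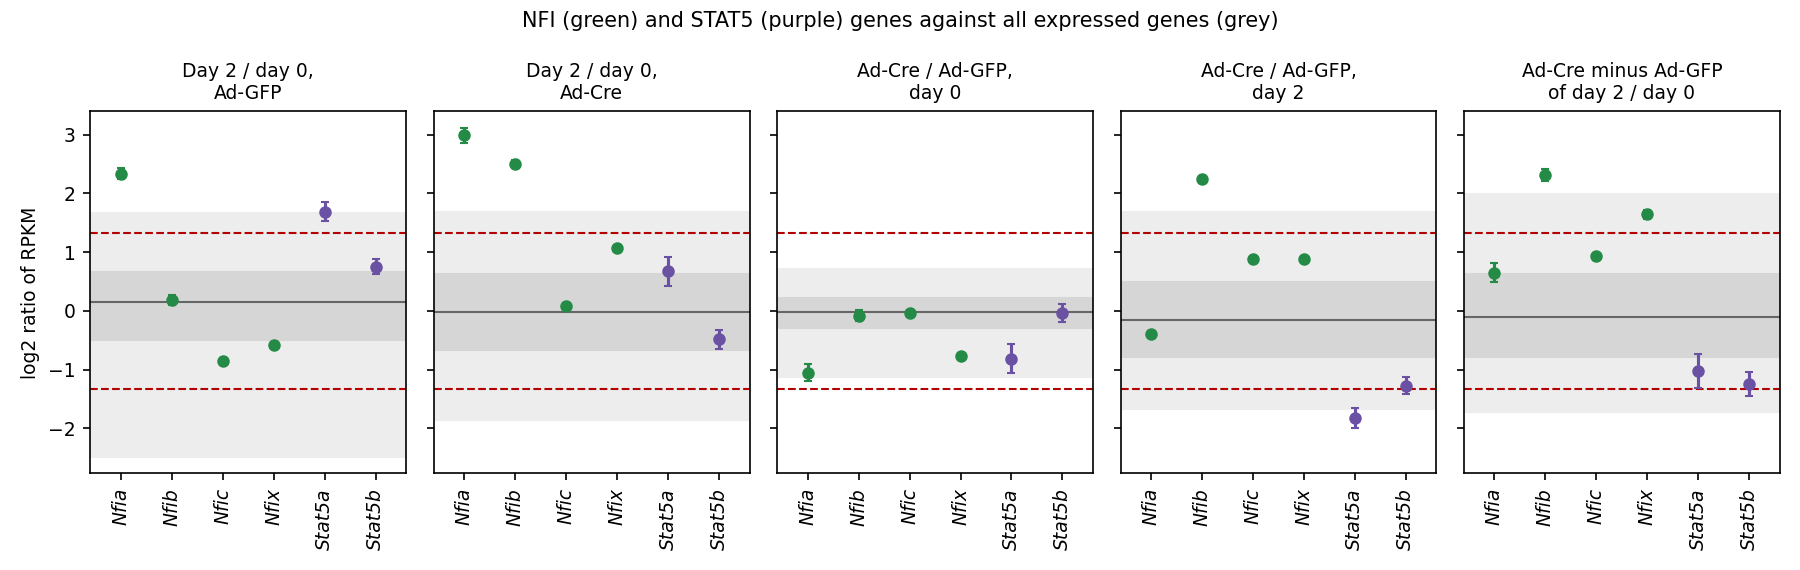
Log2 ratios of RPKM for the 4 comparisons and, on the right, the log2 ratio of D2 to D0 in Ad-Cre cells minus that in Ad-GFP cells. Points are the genes with 95% intervals of counting error, the grey line is the median of expressed genes, dark and light grey hold the middle 50% and the middle 90% of them, and dashed red lines mark 2.5-fold. In the right panel the 4 NFI genes lie above the median and both STAT5 genes below it.

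With Ad-Cre, the log2 ratio of D2 to D0 was higher than with Ad-GFP for the 4 NFI genes and lower for both STAT5 genes. The ratios had opposite signs for 3 of the 6 genes (*Nfic*, *Nfix* and *Stat5b*), beside 37.5% of expressed genes. All 6 differences were past counting error, as were those of 74.8% of expressed genes, 33.3% upward and 41.5% downward. The difference was 0.65 (95% interval 0.50 to 0.81) for *Nfia*, 2.32 (2.22 to 2.42) for *Nfib*, 0.93 (0.87 to 0.99) for *Nfic* and 1.65 (1.57 to 1.73) for *Nfix*. It was −1.02 (−1.31 to −0.73) for *Stat5a* and −1.24 (−1.44 to −1.03) for *Stat5b*. *Nfib* and *Nfix* passed 2.5-fold upward and none of the 6 downward, beside 11.2% and 11.1% of expressed genes, whose median was −0.11. The signs held under TMM factors, the sum of deposited counts, a pseudocount of 1 RPKM, the mean over transcripts, thinned reads and the division by length and GC trends. In the last of these *Nfia* also passed 2.5-fold, with 1.62.

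The D2 libraries also differed in their fat cell genes, and their values are given beside those of the 6 genes. All 9 expressed fat cell genes of the list (of 10) rose past 2.5-fold in both genotypes, with a median log2 ratio of 6.98 with Ad-GFP and 4.68 with Ad-Cre, and all 9 were lower past 2.5-fold in Ad-Cre D2, with a median of −2.15. *Retn*, without a read at D0, is left out of the first 2 medians. *Adipoq*, *Cd36*, *Cidec*, *Plin1* and *Retn* passed the expression filter only through Ad-GFP D2. Their rise with Ad-GFP and their lower level in Ad-Cre D2 thus rest in part on the value that admitted them. The other expressed genes of the list passed on both days. Of all expressed genes, 8.38% rose and 12.7% fell past 2.5-fold with Ad-GFP, and 8.66% and 10% with Ad-Cre. Between genotypes, 8.14% were higher and 10.1% lower in Ad-Cre D2. *Fabp4*, a fatty acid binding protein, had 4.17, 893, 4.24 and 223 RPKM, and *Adipoq*, which encodes the hormone adiponectin, 0.142, 27.5, 0.291 and 5.67. *Cd36*, *Cidec* and *Plin1*, of fatty acid uptake and lipid droplets, had log2 ratios of −1.96, −2.17 and −1.68 in Ad-Cre over Ad-GFP at D2. In bulk samples, fewer cells of a type and less RNA per cell cannot be told apart. The part of this difference in the values of *Stat5a*, *Stat5b* and the NFI genes was not tested. Among 12 adipogenic transcription factors, 7 rose with Ad-GFP and 7 with Ad-Cre, with 1 and 0 lower and medians of 1.78 and 1.41. Between genotypes, 3 were lower and 1 higher in Ad-Cre D2, with a median of −0.58. *Pparg* and *Cebpa*, the central regulators of fat cell identity, were lower in Ad-Cre D2, with log2 ratios of −2.36 (−2.55 to −2.16) and −1.96 (−2.00 to −1.93), as was *Klf15* with −1.90. *Cebpd*, which acts early in adipogenesis, was higher with 1.71 (1.65 to 1.77), and *Cebpb*, its early partner, had 1.05 (1.02 to 1.08). *Prdm16*, a regulator of brown fat identity and the only expressed one of 11 brown fat genes, had 0.554, 2.14, 0.691 and 0.677 RPKM. Like *Klf15*, it passed the expression filter only through Ad-GFP D2. *Ppara*, another of the 11 brown fat genes, had at most 93 reads in a library and 0.543 RPKM.

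The 4 kinases that activate STAT5 stayed within 2.5-fold in all 4 comparisons, as did most expressed genes in each. From D0 to D2, 8.38% of expressed genes were higher and 12.7% lower past it with Ad-GFP, and 8.66% and 10% with Ad-Cre. Between genotypes the shares were 1.27% and 4.12% at D0 and 8.14% and 10.1% at D2. *Jak1* had between 28.3 and 38.3 RPKM, *Jak2*, which serves the growth hormone and prolactin receptors, between 4.08 and 7.98, *Jak3* between 4.26 and 7.30 and *Tyk2* between 4.87 and 5.57. Their median log2 ratio of D2 to D0 was −0.25 with Ad-GFP and 0.03 with Ad-Cre. Of the 4 other STAT genes listed, *Stat3* was the most abundant with between 39.4 and 46.6 RPKM. *Stat6*, which acts downstream of interleukin 4, fell in both genotypes, with log2 ratios of −1.54 (−1.67 to −1.42) and −1.53 (−1.65 to −1.41). *Stat2*, which acts downstream of type I interferon, fell with Ad-GFP (log2 ratio −1.44, −1.58 to −1.30) and had −0.74 with Ad-Cre. *Stat4* had 1 read in all. Of the 3 expressed ones, none rose past 2.5-fold from D0 to D2, beside 8.38% of expressed genes with Ad-GFP and 8.66% with Ad-Cre. With Ad-GFP 2 fell and with Ad-Cre 1, beside 12.7% and 10%. The median of the 3 was −1.44 with Ad-GFP and −0.74 with Ad-Cre.

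Of 21 receptors of this route, 10 were expressed. *Ghr*, the growth hormone receptor, had 17.5 and 23.3 RPKM with Ad-GFP and 12.2 and 20.6 with Ad-Cre, while *Prlr*, the prolactin receptor, had at most 9 reads in a library. Of the 10, none rose and 2 fell with Ad-GFP, beside 8.38% and 12.7% of expressed genes. Of these 2, *Epor*, the erythropoietin receptor, passed the expression filter only through Ad-GFP D0. It had 32 reads and 1.02 RPKM there and 11 reads at D2. With Ad-Cre, 1 rose and none fell, beside 8.66% and 10%. Between genotypes, none was higher and 1 lower at D0, beside 1.27% and 4.12%. At D2, 3 were higher and 1 lower, beside 8.14% and 10.1%. *Il11ra1*, a receptor of interleukin 11, rose in Ad-Cre cells with a log2 ratio of 3.40 (3.19 to 3.61) and had 0.70 (0.53 to 0.86) in Ad-GFP cells. *Il3ra*, a receptor of interleukin 3, was higher in Ad-Cre D2 with 2.78 (2.54 to 3.04), although the signalling chains it pairs with, *Csf2rb* and *Csf2rb2*, had at most 1 read in any library. *Csf2ra*, the receptor of GM-CSF, which pairs with the *Csf2rb* product, had 1.93 (1.60 to 2.27). *Il4ra*, of the interleukin 4 receptor, fell in Ad-GFP cells (log2 ratio −2.62, −2.87 to −2.37). In Ad-Cre cells its ratio was −1.31 (−1.74 to −0.91), just short of 2.5-fold, and it was lower in Ad-Cre D0 with −2.20 (−2.44 to −1.96). *Il6ra*, of the interleukin 6 receptor, was lower in Ad-Cre D2 with −1.73 (−2.09 to −1.38). The median log2 ratio of the 10 was −0.27 with Ad-GFP and 0.46 with Ad-Cre from D0 to D2.

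All 16 inhibitors of JAK-STAT signalling were expressed. None rose and 2 fell with Ad-GFP, beside 8.38% and 12.7% of expressed genes. With Ad-Cre, 2 rose and 1 fell, beside 8.66% and 10%. The medians were 0.04 and 0.16. Between genotypes at D0, none was higher and 2 lower in Ad-Cre cells, beside 1.27% and 4.12% of expressed genes. At D2, 1 was higher and 2 lower in Ad-Cre cells, beside 8.14% and 10.1% of expressed genes. *Ptpn6*, among the lower ones on both days, passed the expression filter only through Ad-GFP D0, with 1.16 RPKM. It had 24 reads in Ad-GFP D2 and 7 in Ad-Cre D2. *Socs1* fell with Ad-GFP (log2 ratio −2.23, −2.64 to −1.83) and had −0.38 with Ad-Cre. *Socs5* fell in Ad-GFP cells (log2 ratio −1.58, −1.69 to −1.47) and had −1.18 (−1.35 to −1.01) in Ad-Cre cells. *Socs4* fell in Ad-Cre cells (log2 ratio −1.59, −1.98 to −1.22). *Socs3* had −1.20 with Ad-GFP and 0.86 with Ad-Cre from D0 to D2, and was lower in Ad-Cre D0 with −1.83 (−1.99 to −1.66). *Cish* and *Socs2* are both direct STAT5 targets whose products bind phosphorylated receptors. *Cish* had 303, 195, 207 and 249 reads in Ad-GFP D0, Ad-GFP D2, Ad-Cre D0 and Ad-Cre D2, or 8.15, 3.93, 4.91 and 6.39 RPKM. Ad-GFP D2, highest for *Stat5a* and *Stat5b*, was lowest for *Cish*, with a log2 ratio of D2 to D0 of −1.05 (−1.32 to −0.79). With Ad-Cre this ratio of *Cish* was 0.38 (0.11 to 0.65). *Socs2* had 190, 266, 192 and 505 reads, or 4.97, 5.21, 4.43 and 12.6 RPKM. It rose in Ad-Cre cells, where the log2 ratio was 1.51 (1.27 to 1.76), and had 0.07 (−0.21 to 0.34) in Ad-GFP cells.

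Among 15 genes listed as STAT5 targets, 12 were expressed. The list does not give the direction in which STAT5 acts on each gene, so the counts and medians are not split by it. In Ad-GFP cells 3 rose and 1 fell, beside 8.38% and 12.7% of expressed genes. In Ad-Cre cells 4 rose and 2 fell, beside 8.66% and 10%. Between genotypes, 4 were lower in Ad-Cre D0 and 1 at D2, beside 4.12% and 10.1%. None was higher at either day, beside 1.27% and 8.14%. Their median log2 ratio was −0.08 with Ad-GFP and 0.75 with Ad-Cre from D0 to D2. *Bcl6*, a transcriptional repressor, rose in both, with 2.28 (2.11 to 2.45) and 2.56 (2.40 to 2.74). *Myc*, a growth-promoting factor, rose with Ad-GFP (log2 ratio 2.35, 2.24 to 2.46) and had 0.95 with Ad-Cre. *Pdk4*, a kinase that restrains glucose oxidation, had 9.38, 23.7, 2.18 and 6.65 RPKM, and was lower in Ad-Cre cells on both days, with −2.10 (−2.38 to −1.84) and −1.83 (−1.99 to −1.68). Of the 12 targets, *Pdk4* had its libraries in the order of *Stat5a*, which 3.31% of expressed genes have, and none in that of *Stat5b*. Ad-GFP D2 was the highest library for 3 of the 12 (*Myc*, *Pdk4* and *Pim1*), beside 38.1% of expressed genes, and the lowest for 3 (*Bcl2l1*, *Ccnd1* and *Cish*), beside 23% of them. *Igf1*, a growth factor, had −0.49 with Ad-GFP and rose with Ad-Cre (log2 ratio 1.61, 1.13 to 2.11). Its levels were 1.28, 0.911, 0.355 and 1.08 RPKM, with 49 reads in Ad-Cre D0. *Igf1* passed the expression filter only through Ad-GFP D0, so its place among the targets lower in Ad-Cre D0 rests in part on that value. It was lower in Ad-Cre D0 with −1.85 (−2.35 to −1.38), and at D2 the ratio was 0.25 (−0.10 to 0.59). *Ccnd1*, the cell cycle regulator cyclin D1, fell with Ad-GFP (log2 ratio −4.81, −5.22 to −4.44) and with Ad-Cre (log2 ratio −1.78, −2.23 to −1.36), from levels that already differed at D0 (19.0 and 2.92 RPKM). It too passed the filter only through Ad-GFP D0, with 0.676 RPKM in Ad-GFP D2.

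**Figure D4:**
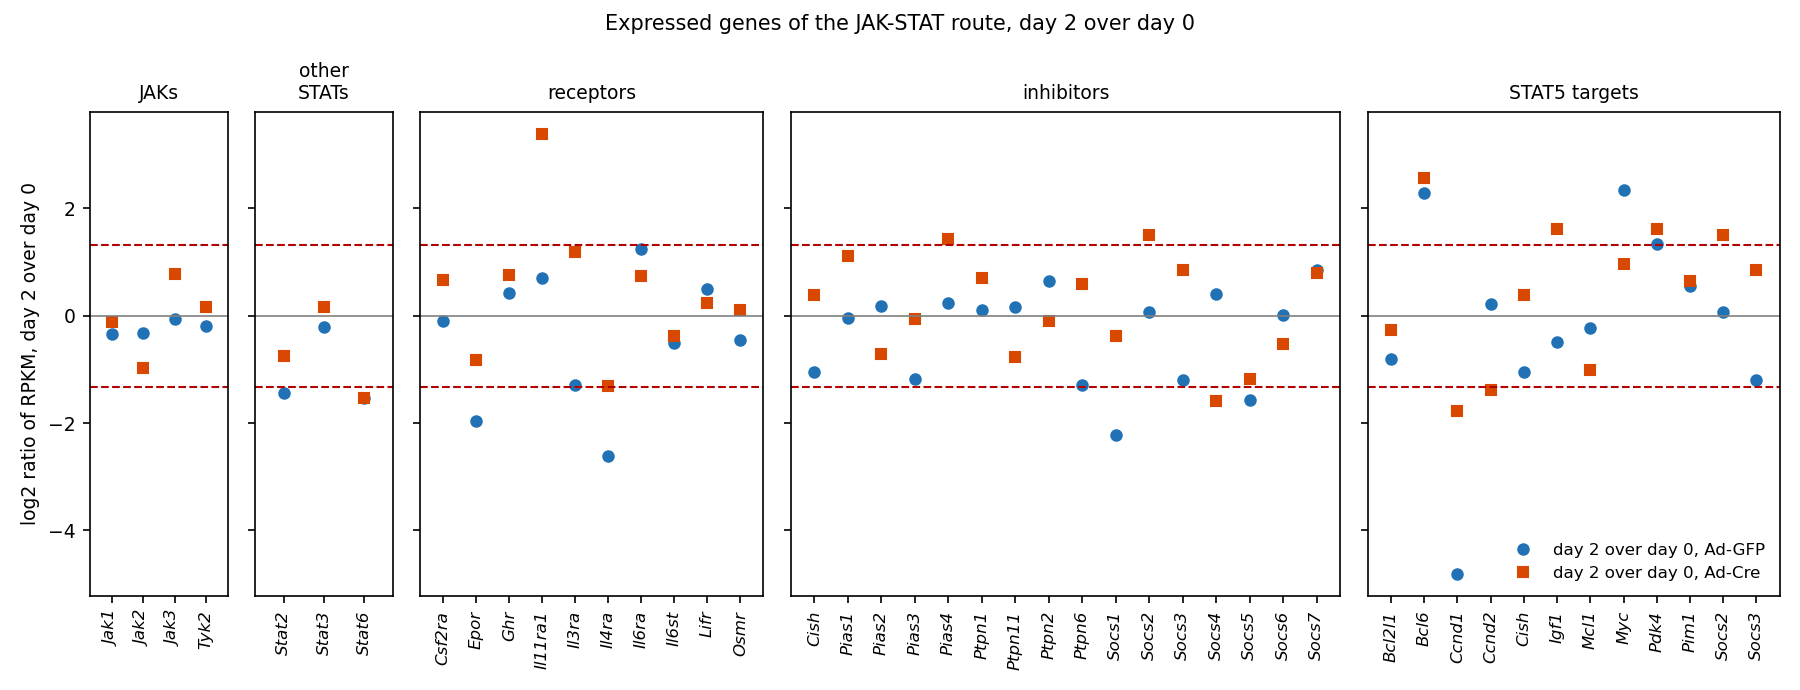
Log2 ratio of RPKM, D2 over D0, of every expressed gene in the lists of JAK kinases, other STATs listed, receptors, inhibitors and STAT5 targets, for Ad-GFP (blue circles) and Ad-Cre cells (orange squares). Dashed red lines mark 2.5-fold. The JAK kinases lie between the lines in both genotypes, as the ratios of most expressed genes do, and *Bcl6* lies above the lines in both.

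The sequence TTCNNNGAA, which reads the same on both strands, was searched in promoter windows of 300 bases (250 before and 50 after each start) from RefSeq on GRCm38.p6. It occurs in 8.30% of 32851 windows. Of the 15 STAT5 targets, 10 were in the table and 4 had it in at least 1 window (*Bcl6*, *Cish*, *Igfals* and *Socs3*). Some genes have several windows, so that counts of genes, here and below, cannot be set directly against shares of windows. The stretches of *Cish* and *Bcl6* are printed because each holds several copies within 1 window and their levels went different ways with Ad-GFP. Their log2 ratios of D2 to D0 were −1.05 and 2.28 with Ad-GFP, and 0.38 and 2.56 with Ad-Cre. Capitals mark the fixed letters of each copy:
Cish: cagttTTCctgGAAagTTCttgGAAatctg
Bcl6: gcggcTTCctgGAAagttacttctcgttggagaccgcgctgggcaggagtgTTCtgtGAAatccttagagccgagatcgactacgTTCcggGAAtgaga
The first is chr9:107296654-107296683 on the plus strand and spans the start itself, and the second is chr16:23981358-23981456 on the minus strand, within the 250 bases before a start. Of the 6 NFI and STAT5 genes, 5 were in the table, and *Nfic* and *Nfix* had 1 copy each, *Nfix* in 1 of its windows. The NFI palindrome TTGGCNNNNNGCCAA occurs in 0.0365% of windows, 12 in all, and in none of the windows of these 5 genes, and its arm TTGGC alone in 46.7% of windows on either strand. A match is a description of these letters and not of binding.

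Genes with the most similar course over the 4 libraries were found by the distance of log2 RPKM, centred on each gene's mean, among 7029 other expressed genes with at least 200 reads in each library. *Nfia* had no gene within 0.5, and the nearest were *Fkbp5*, a co-chaperone of steroid receptors, at 0.74, *Csad* at 0.75 and *Fgfrl1* at 0.80. *Nfib* had 5 within 0.5, led by *Nfkbia*, the inhibitor of NF-κB, at 0.40, *Thap3* at 0.42 and *Plagl1* at 0.42. *Nfkbia* had 19.7, 31.4, 18.6 and 119.1 RPKM. *Stat5a* had 14 within 0.5, led by *Slc5a3*, a transporter of myo-inositol, at 0.22, *Rin2* at 0.22 and *Stom* at 0.24. The courses of *Nfic*, *Nfix* and *Stat5b* were shared by many genes, with 442, 231 and 885 within 0.5. The nearest were *Anapc2*, *Capzb* and *S100a10* for *Nfic*, *Ssbp2*, *Cep89* and *1110051M20Rik* for *Nfix*, and *Taf2*, *Ubqln1* and *Eif4ebp2* for *Stat5b*, at distances of between 0.05 and 0.11. Of the 6 genes themselves, *Nfic* and *Nfix* were the closest pair, at 0.81, and *Nfia* and *Nfic* the farthest apart, at 3.25. A distance over 4 libraries is a description, and says nothing of shared control.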

How the data were processed

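The RNA-Seq libraries of both viruses and both days were analysed, with 1 library per condition. Reads of 50 bases were mapped by the authors to NCBI37/mm9, and those on RefSeq exons were kept. The authors deposited for each transcript the read count, a whole number without normalization, and the RPKM, which is the count divided by exon length and mapped reads. Mapped reads were recovered from the ratio of both values, and exon lengths then came out whole (within 0.0001 base) for 100% of transcripts with reads. The aligner settings, the treatment of reads with several matches and the use of strand are not given in the sources used here. *Nfia*, *Nfic*, *Nfix* and *Stat5a* overlap exons of other genes on the opposite strand by 4, 72, 137 and 72 bases. These overlaps, the windows and the coding sequences are of the annotated transcript nearest in length to the counted one. The annotated length was 2495 bases against 2741 counted for *Nfix*, and 5062 against 4923 for *Stat5b*.

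Symbols (97.8% of transcripts) came from RefSeq, and coordinates, exons, GC content and transcript sequences from GENCODE vM1 on NCBI37/mm9. Ratios were formed from RPKM without a pseudocount. Exact binomial intervals of read ratios and exact Poisson intervals of levels (95%, scipy 1.17.1) cover counting error only, as do the normal intervals of differences of log2 ratios, and p-values were not computed. Past 2.5-fold and above 1 RPKM follow the study's methods. Windows of 50 bases were matched with blastn 2.17.0 and, between the 6 transcripts, at every offset without gaps, with at most 2 mismatches. Coding sequences were aligned with mafft 7.526. TMM factors came from edgeR 4.0.16 in R 4.3.3, and no edgeR test was run. The other tools were matplotlib 3.10.9, pandas 2.3.3, numpy 2.4.6 and Python 3.11.15, and the procedure was tested on simulated data.

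The 6 genes and the gene lists were chosen with earlier results of these data known, and 1 gene was left out of the lists and is not reported here. Named from each list were up to 5 genes with at least 100 reads over the 4 libraries and the largest ratio in any of 4 comparisons, besides the JAK kinases, the other STAT genes listed, *Cish* and *Socs2*, and the 3 genes most similar to each of the 6. Named outside this rule, with values seen, were *Ghr*, *Prlr*, *Csf2rb*, *Csf2rb2*, *Igfals*, *Retn*, *Ucp1*, *Cidea*, *Ebf2*, *Pim1* and *Bcl2l1*. The same holds for *Pdgfrb*, *Col3a1*, *Epor* and *Ptpn6*. There were 10 alternative settings, of which the division by trends used medians of 20 bins of length and of GC content in 5 rounds. The division also set the median log2 ratio of expressed genes to 0 in each of the 4 comparisons.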

Additional observations from a re-analysis of the deposited data

Results flagged for a closer look

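Of the 6 genes, 3 moved in opposite directions from D0 to D2 in the only library pair of each genotype, beside 37.5% of expressed genes. The log2 ratio of *Nfic* was −0.85 with Ad-GFP and 0.08 with Ad-Cre, a difference of 0.93. That of *Nfix* was −0.58 and 1.07, a difference of 1.65. That of *Stat5b* was 0.75 and −0.49, a difference of −1.24. These differences were not tested, since each condition has 1 library. The ratio of *Nfic* in Ad-Cre cells, 1.06-fold, lies within the middle 50% of expressed genes, which had log2 ratios of between −0.67 and 0.63.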

How the results depend on the processing

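No paired analysis was possible because each condition has 1 library and no replicate. The number of the 6 genes past 2.5-fold was 2, 2, 0 and 2 for D2 over D0 with each virus and for Ad-Cre over Ad-GFP at D0 and D2, and 2 for the difference of the D2 to D0 ratios. These counts were the same, or within 1.5 times, under TMM factors, the sum of deposited counts, a pseudocount of 1 RPKM, the mean over transcripts, thinning to the smallest library, division by length and GC trends and the interval bound. A cutoff of 4-fold left 1 in Ad-GFP cells (*Nfia*), 1 between genotypes at D2 (*Nfib*) and 1 for the difference (*Nfib*). A cutoff of 2-fold gave 1 between genotypes at D0 (*Nfia*) and 4 for the difference. Of 180 values of single genes under 6 of the alternatives, 175 kept their sign. The other 5 were ratios within 2.5-fold, namely *Nfia* at D2 (0.56 in place of −0.40) and *Nfib* in Ad-GFP cells (−0.04 in place of 0.18) under the length and GC trend, and *Nfic* and *Stat5b* at D0 (0.0021 and 0.0058 with TMM factors, and for *Stat5b* 0.02 under the trend). The cause was not tested. The order of the NFI genes was the same in all 4 libraries under the 5 alternatives it was tried with. TMM factors, the sum of deposited counts and the pseudocount act alike on every gene of a library and cannot change this order. Only the mean over transcripts and thinning could have changed it, and the length and GC trend was not tried. TMM factors moved the median of expressed genes from 0.15 to 0.05 in Ad-GFP cells and from −0.16 to −0.01 between genotypes at D2, and the sum of deposited counts moved it from −0.01 to 0.17 in Ad-Cre cells. Without the expression filter, the share of genes past 2.5-fold between genotypes was 5.36% higher and 7.79% lower at D0 and 13.3% higher at D2, in place of 1.27%, 4.12% and 8.14%. *Stat5a* in Ad-Cre D0 rests on 236 reads, the fewest of any value of the 6 genes.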
